A study of Homo sapiens with 8 samples.

Results

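The loci of 50 genes that hepatocytes are known for were examined for G-quadruplexes (G4s) mapped in HepG2 and K562 cells. The genes were taken from a list of secreted plasma proteins and metabolic proteins of the liver, and all 50 were found among the 20163 protein-coding genes of the GENCODE annotation on hg19. They were grouped by role into 9 groups: 12 carrier and transport proteins, 4 serpins, 9 apolipoproteins and hepatic lipase, 9 proteins of coagulation and fibrinolysis, 3 of complement, 4 inter-alpha-trypsin inhibitor heavy chains, both asialoglycoprotein receptor subunits, 4 metabolic enzymes and 3 proteins of growth factor binding and the cell surface. A locus was the gene body plus 1 kb upstream of each annotated transcription start site (TSS), and a peak was counted there if it shared at least 1 bp. Lists of 66 other hepatocyte genes and of 31 erythroid genes were read the same way beside it. All of these lists were chosen with earlier results of these data known.

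The maps came from G4 ChIP-seq, in which sonicated chromatin is precipitated with the antibody BG4, which binds folded G4s. K562 is a chronic myelogenous leukemia line with erythroid features and HepG2 a hepatocellular carcinoma line with hepatocyte features, and both were grown asynchronously, without treatment, and cross-linked with formaldehyde. GEO lists 3 libraries of G4 ChIP and 1 of input for each line, while the authors merged 8 replicates for K562 and 9 for HepG2 into 1 list per line and threshold. A high-confidence peak had to recur in 5 of 8 K562 or 6 of 9 HepG2 replicates, and a lower-confidence peak in 2 of either. These are 2 established, aneuploid lines of different origin, so cell type, culture and copy number cannot be told apart in any difference between them. A peak comes with a position and without a height, a read count or a replicate number, so the depth behind it is unknown, no spread between replicates could be computed, and no test was made. Shares of genes or peaks are given with a 95% Wilson interval where it helps, which covers counting only. Each count over the 50 liver genes is set beside the share of all 20163 protein-coding genes called by the same rule. Counts within a group rest on 2 to 12 genes and describe those genes alone.

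A G4 is a four-stranded DNA fold made by stacked squares of guanines, which form where several runs of G lie close together on one strand. Many genes of housekeeping function start in CpG islands, which are rich in such runs. Genes for plasma proteins mostly start outside CpG islands, from promoters bound by liver-enriched factors such as HNF1, HNF4A, FOXA and CEBP, and are mostly silent in blood cells. No expression values were analysed here, so the activity of these genes in the 2 lines was not measured.

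HepG2 had a high-confidence peak in 19 of the 50 loci, and K562 in 5. The HepG2 share, 38.0% (Wilson interval 25.9 to 51.8), lay near the 34.5% of all protein-coding genes, whereas the K562 share, 10.0% (4.35 to 21.4), lay far under the 37.9% of all genes. With peaks of either list, 34 loci (68.0%, 54.2 to 79.2) had a HepG2 peak beside 57.6% of all genes, and 10 (Wilson interval 11.2 to 33.0%) a K562 peak beside 54.0%. By these shares of loci, and against all protein-coding genes, the liver genes stood apart in their K562 peaks. Peaks per length and genes of like CpG content, given further on, set them apart in HepG2 peaks. Genes of like locus length did not: 29.2% of 24 liver genes had a HepG2 high-confidence peak, beside 37.3%.

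By whole locus, HepG2 peaks without a K562 peak were frequent, and the reverse was not seen. A HepG2 high-confidence peak with no K562 peak of either list in the whole locus was found for 13 genes (26.0%, 15.9 to 39.6), beside 3.19% of all protein-coding genes. They were AMBP, SERPINA1, AGT, APOA2, APOB, APOC3, F2, F10, ITIH4, ASGR1, ASGR2, PCK1 and FBP1. The opposite pattern, a K562 high-confidence peak with no HepG2 peak, was found for 0 of 50 genes, beside 2.91% of all genes. A count of 0 allows a share of up to 6.00% if 3 counts are taken as its limit, and the Wilson interval reaches 7.13%. The 2.91% lies within both, so this count of 0 does not set the liver genes apart from all genes. Counted with either list, 24 loci (48.0%, 34.8 to 61.5) had peaks of HepG2 alone beside 10.8% of all genes, and 0 had peaks of K562 alone beside 7.11%. The remaining 16 genes (32.0%, 20.8 to 45.8) had no peak of any list in the locus, beside 35.3% of all genes. The numbers of peaks in the whole lists do not run the same way: the high-confidence lists hold 9205 peaks in K562 and 8805 in HepG2, and the lower-confidence lists 19249 and 28387.

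**Figure D1:**
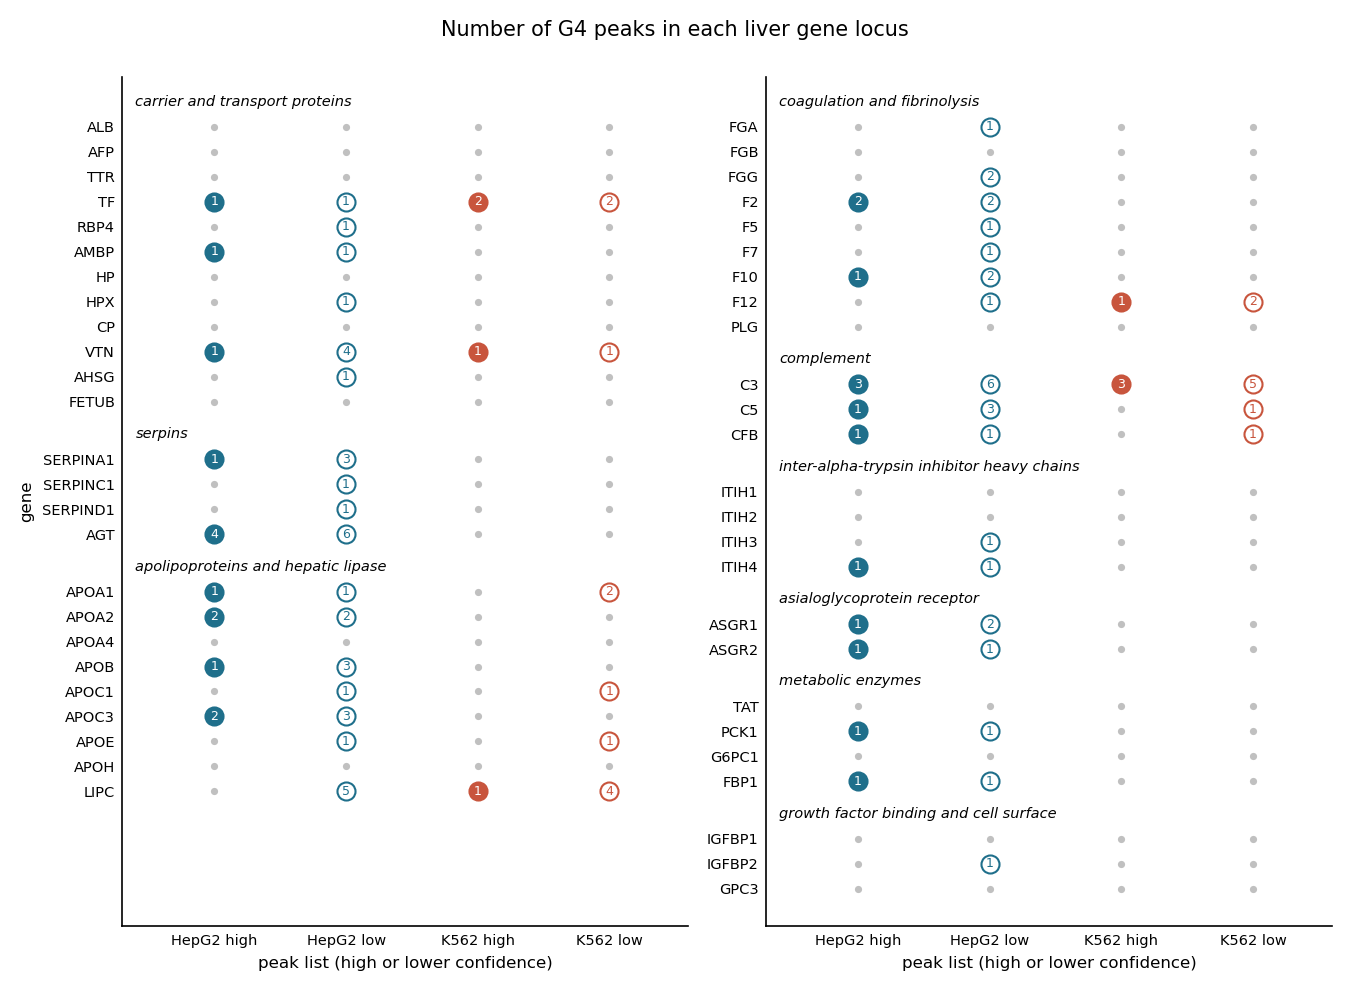
Number of G4 peaks in the locus of each of the 50 liver genes (rows, grouped by role) in each of the 4 lists (columns). Filled circles are high-confidence lists, open circles lower-confidence lists, small grey dots no peak. HepG2 circles occur at 34 genes and K562 circles at 10, all of which also have a HepG2 circle.

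The peaks were then placed within the genes. The 27 HepG2 high-confidence peaks of the 50 loci had their centre in the 1 kb upstream of a TSS of their own gene in 18 cases (66.7%), in an intron in 7, in a coding exon in 1 and in another exon in 1. The median centre lay 104 bp upstream of the nearest own TSS. By gene, 15 of 50 (30.0%, 19.1 to 43.8) had a HepG2 high-confidence peak in the upstream 1 kb beside 29.6% of all genes, and 2 (1.10 to 13.5%) a K562 one beside 34.6%. Both K562 cases, F12 and C3, were at alternative starts away from the canonical one. Upstream of the canonical TSS, the start of the transcript that the annotation marks as representative, HepG2 again had 15 genes (30.0%) beside 26.5% of all genes and K562 had 0 beside 31.3%. With either list, the upstream 1 kb was marked in HepG2 at 29 genes (58.0%) beside 48.9% of all genes and in K562 at 4 beside 48.5%.

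The sequences under 2 peaks that reach into the 1 kb upstream of a TSS show what a G4 motif looks like in these loci. The motif asked for 4 runs of 3 or more G, separated by loops of 1 to 7 bases, on one or the other strand, and is in capitals. Each stretch is from hg19, written 5′ to 3′ on the coding strand of its gene, so that a motif on the template strand reads as runs of C. At F2, which had this peak in HepG2 and no K562 peak, the motif lies on the template strand. The stretch of C3 comes from a peak that both lines shared and holds 3 motifs on the coding strand. That peak lies at an alternative C3 start within GPR108, centred 9872 bp upstream of the canonical TSS in HepG2. The HepG2 high-confidence peak just upstream of the canonical C3 start held no motif, and the wider lower-confidence peak around it held 1. Of each peak, the longest part outside untranslated exons is shown.
F2, chr11:46740655-46740762: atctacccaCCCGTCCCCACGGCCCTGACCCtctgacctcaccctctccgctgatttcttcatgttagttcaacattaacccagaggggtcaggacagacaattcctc
C3, chr19:6730574-6730756: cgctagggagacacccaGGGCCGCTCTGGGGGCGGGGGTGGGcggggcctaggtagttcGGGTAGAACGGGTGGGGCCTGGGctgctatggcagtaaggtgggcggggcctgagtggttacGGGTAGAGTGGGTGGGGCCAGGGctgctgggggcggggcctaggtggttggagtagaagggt

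Most HepG2 high-confidence promoter peaks at liver genes held no such motif within their bounds. The next 5 are shown for this reason, and because K562 had no peak anywhere in these loci. Capitals mark every run of at least 3 G or 3 C. The runs are there, but on each strand they are too few or too far apart for the motif. At APOC3, the wider lower-confidence peak around the one shown held 1 motif.
SERPINA1, chr14:94855003-94855137: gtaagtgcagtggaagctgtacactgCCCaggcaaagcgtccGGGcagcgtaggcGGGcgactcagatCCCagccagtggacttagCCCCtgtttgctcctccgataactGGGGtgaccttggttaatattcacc
APOA2, chr1:161193422-161193521: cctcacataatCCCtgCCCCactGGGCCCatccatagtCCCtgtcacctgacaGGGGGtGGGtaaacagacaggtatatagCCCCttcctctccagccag
APOB, chr2:21266967-21267124: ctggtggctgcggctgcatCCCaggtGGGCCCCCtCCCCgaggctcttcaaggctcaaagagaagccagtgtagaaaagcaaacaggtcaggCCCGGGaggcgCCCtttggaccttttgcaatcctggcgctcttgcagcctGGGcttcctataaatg
APOC3, chr11:116699780-116699987: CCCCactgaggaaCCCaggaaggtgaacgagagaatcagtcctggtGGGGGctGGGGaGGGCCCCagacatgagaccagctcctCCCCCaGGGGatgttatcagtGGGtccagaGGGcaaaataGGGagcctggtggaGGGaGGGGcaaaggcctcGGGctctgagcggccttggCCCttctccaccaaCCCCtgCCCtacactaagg
F10, chr13:113776990-113777112: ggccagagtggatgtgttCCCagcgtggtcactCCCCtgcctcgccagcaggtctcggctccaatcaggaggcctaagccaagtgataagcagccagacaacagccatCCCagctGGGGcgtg

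**Figure D2:**
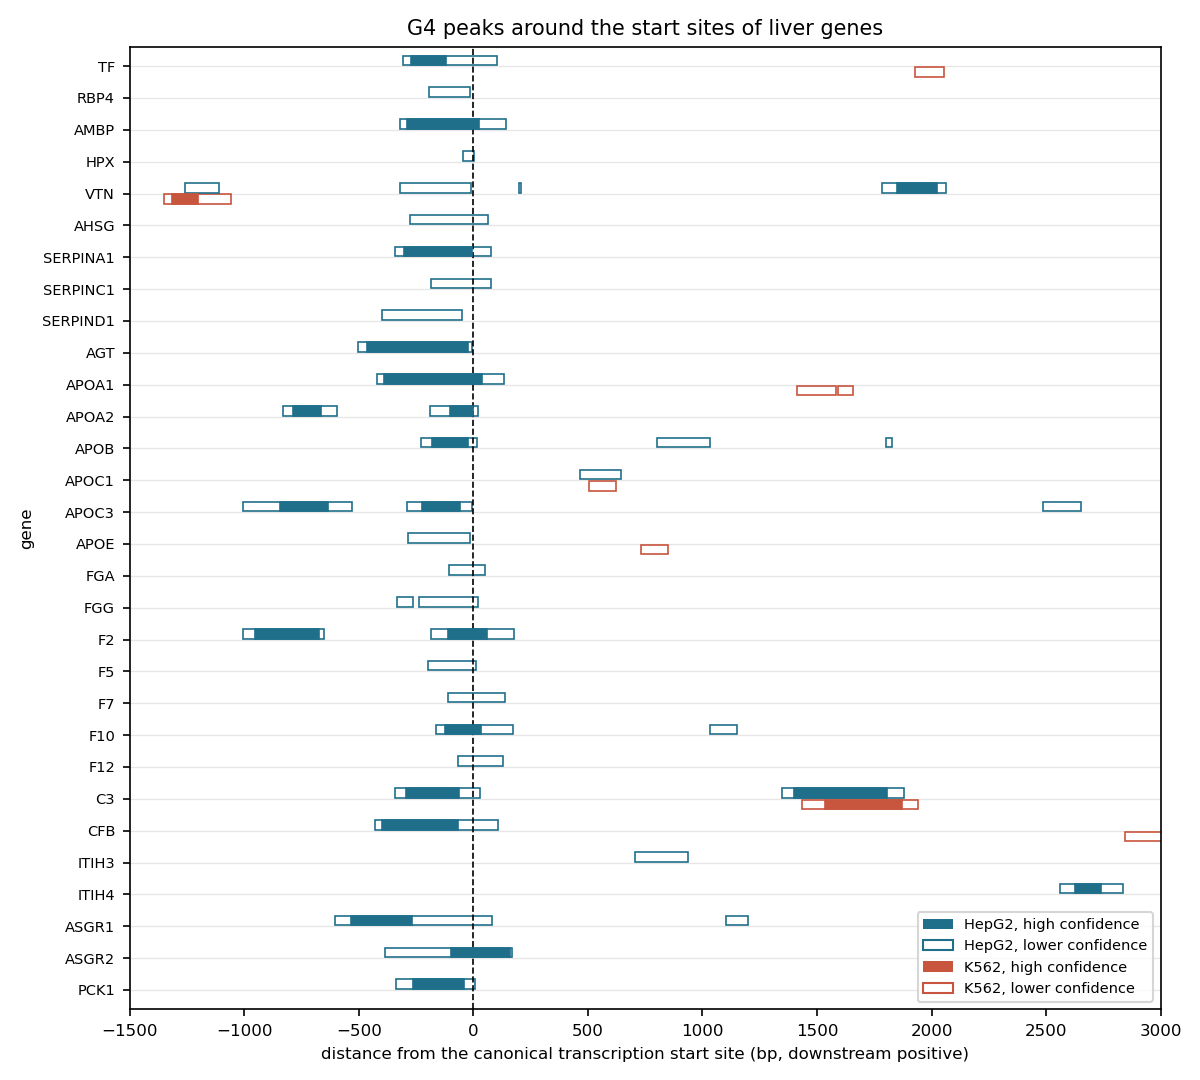
G4 peaks within 3000 bp of the canonical TSS (dashed line), in bp, for the liver genes that have one there, with upstream positions to the left and cut at 1500 bp. Blue bars are HepG2 and red bars K562, filled for high confidence and open for lower confidence. Blue bars gather just upstream of the start, and no red bar has its centre within 1 kb upstream of it.

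Among the carrier proteins, the iron carrier transferrin (TF, chr3) had high-confidence peaks in both lines at different places. The HepG2 peak, chr3:133464965-133465116, was centred 197 bp upstream of the canonical TSS. The K562 high-confidence list had stretches of 5 bp and 103 bp more than 7 kb inside the gene, centred 7599 and 7693 bp downstream of that TSS. A K562 lower-confidence peak of 128 bp was centred 1992 bp downstream of it, and 245 bp downstream of an alternative TF start. No K562 peak of either list lay upstream of the canonical TSS. AMBP, which encodes alpha-1-microglobulin and bikunin, had a HepG2 peak of 311 bp centred 132 bp upstream, chr9:116840557-116840867, and no K562 peak.

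Vitronectin (VTN, chr17), a plasma and matrix adhesion protein, lies within the annotated body of SARM1, so that its peaks cannot be given to 1 gene. Its HepG2 high-confidence peak, chr17:26695307-26695478, lay in an intron 1936 bp downstream of the canonical TSS. The K562 high-confidence peak, chr17:26698532-26698642, lay 1259 bp upstream of the VTN start, in the 1 kb upstream of SARM1, and overlapped a HepG2 lower-confidence peak. At the VTN start itself only HepG2 had a peak, of lower confidence, centred 166 bp upstream.

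RBP4, the plasma carrier of retinol, had a single HepG2 lower-confidence peak centred 104 bp upstream of its start, with a GC content of 71.8% and 1 G4 motif. That peak also overlaps the annotated body of FFAR4. Hemopexin (HPX), which binds free heme, had one of 47 bp centred 20 bp upstream, and the fetuin AHSG one of 341 bp centred 106 bp upstream. None of the 3 had a K562 peak. Albumin (ALB), alpha-fetoprotein (AFP), transthyretin (TTR), haptoglobin (HP), ceruloplasmin (CP) and FETUB had no peak of any list. The nearest HepG2 high-confidence peak lay 145 kb from the canonical start of ALB and 163 kb from that of AFP, and the nearest K562 one 334 kb and 366 kb. HP lies beside its close copy HPR, and the methods name a filter on low mapping quality, which can remove reads that fit both. Whether reads at HP were lost in this way was not tested.

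The 4 serpins, protease inhibitors and their relatives, all had a HepG2 peak and none a K562 peak. Of all protein-coding genes, 57.6% had a HepG2 peak of either list and 54.0% a K562 one. Alpha-1-antitrypsin (SERPINA1) had a high-confidence peak of 293 bp centred 154 bp upstream of the canonical TSS, chr14:94854947-94855239. AGT, the precursor of angiotensin, had 4 HepG2 high-confidence peaks, more than any other of the 50 genes. One, of 438 bp, was centred 244 bp upstream of the canonical TSS, one lay in a coding exon 10893 bp downstream, one in an exon 5324 bp downstream and one in an intron of a longer transcript 15016 bp upstream. None of the AGT peaks held a G4 motif in the high-confidence list. The wider lower-confidence peak around the one 5324 bp downstream held 1. Antithrombin (SERPINC1) and heparin cofactor II (SERPIND1) had HepG2 lower-confidence peaks alone, centred 53 and 223 bp upstream. The SERPIND1 peak also overlaps the annotated body of PI4KA.

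Of the 8 apolipoproteins, 4 had a HepG2 high-confidence peak, beside 34.5% of all genes, and none a K562 one, beside 37.9%. APOA2, of high-density lipoprotein, had 2, centred 52 and 725 bp upstream of the canonical TSS. APOB, the structural protein of low-density lipoprotein, had 1 of 158 bp centred 100 bp upstream, at chr2:21266967-21267124. APOC3, an inhibitor of triglyceride clearance, had 2, centred 140 and 740 bp upstream. None of the high-confidence peaks of these 3 genes held a G4 motif. The wider lower-confidence peak around the APOC3 peak centred 740 bp upstream held 1.

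APOA1, the main protein of high-density lipoprotein, had the widest HepG2 high-confidence peak of the 8 genes. It spans 429 bp, is centred 177 bp upstream of the TSS, and holds 2 motifs. K562 had 2 lower-confidence peaks at APOA1, both in a coding exon, centred 1498 and 1626 bp downstream, with no motif and no overlap with a HepG2 peak. The neighbouring APOA4, made mainly in the gut, had no peak in its own locus, and the nearest HepG2 high-confidence peak lay 3.58 kb from its start, between APOA4 and APOC3. Within 12 kb of the APOC3 start, HepG2 thus had 4 high-confidence peaks and K562 had 0.

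**Figure D3:**
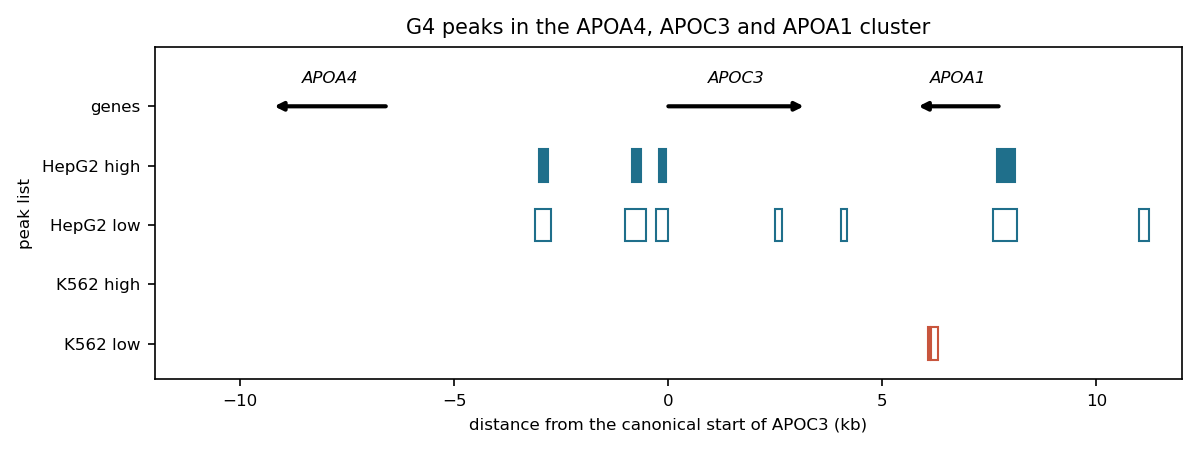
Genes (arrows in the direction of transcription) and G4 peaks of each list in the APOA4, APOC3 and APOA1 cluster, by distance in kb from the canonical start of APOC3. HepG2 has 4 high-confidence peaks, at and upstream of APOC3 and at the start of APOA1, and K562 has lower-confidence peaks alone, inside APOA1.

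APOE, which carries lipids to their receptors, had lower-confidence peaks of both lines that did not overlap. The HepG2 one was centred 149 bp upstream of the TSS with a motif on each strand, and the K562 one lay in an untranslated exon 790 bp downstream. APOC1 had lower-confidence peaks of both lines that overlapped, centred 555 bp (HepG2) and 566 bp (K562) downstream of the canonical TSS. APOH had no peak. Hepatic lipase (LIPC) had a K562 high-confidence peak of 127 bp deep inside the gene, 114856 bp from the canonical TSS, which overlapped a HepG2 lower-confidence peak. Its long annotated locus overlaps ALDH1A2, and 4 of its HepG2 and 1 of its K562 lower-confidence peaks lay in that overlap.

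Of the 9 genes of coagulation and fibrinolysis, 7 had a HepG2 peak, each with 1 near the start of the gene. A K562 peak was found for 1. The shares of all genes were 57.6% and 54.0%. Prothrombin (F2) had 2 HepG2 high-confidence peaks, centred 24 and 812 bp upstream of the canonical TSS, the first with the motif shown above. Factor X (F10) had 1 of 157 bp, centred 45 bp upstream. Lower-confidence HepG2 peaks alone were found for the fibrinogen chains FGA, centred 28 bp upstream, and FGG, with 2 centred 108 and 298 bp upstream, and for factors V and VII (F5, F7), centred 93 bp upstream and 14 bp downstream. The third fibrinogen chain (FGB) and plasminogen (PLG) had no peak.

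Factor XII (F12) had peaks of both lines at different starts. The HepG2 lower-confidence peak was centred 31 bp downstream of the canonical TSS. The K562 high-confidence peak, chr5:176831426-176831660, was centred 5022 bp downstream of it and 70 bp upstream of an alternative F12 start. It had a GC content of 74.0% beside 56.2% for the HepG2 peak. Both peaks lie within the annotated body of GRK6.

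All 3 complement genes had a HepG2 high-confidence peak, and all 3 a K562 peak of some list, unlike the other groups. Of all genes, 34.5% and 54.0% had such peaks. C3, the central protein of the cascade, had 3 high-confidence peaks in each line. The 2 that overlapped between the lines were an intronic one, 403 bp in HepG2 and 335 bp in K562, centred 1603 and 1702 bp downstream of the canonical TSS and holding 2 motifs, and one about 10 kb upstream of that TSS, at an alternative C3 start within GPR108, whose sequence is shown above. The third HepG2 peak of C3, centred 178 bp upstream of the canonical TSS, had no K562 counterpart, and the third K562 peak lay 26765 bp inside the gene, 802 bp upstream of an internal start.

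Factor B (CFB), of the alternative pathway, had a HepG2 high-confidence peak of 334 bp centred 233 bp upstream and a K562 lower-confidence peak 2944 bp downstream, and C2 is annotated over part of the locus. C5 had a HepG2 high-confidence peak of 76 bp in an intron, 5521 bp upstream of the canonical TSS and inside a longer annotated transcript. Lower-confidence peaks of both lines overlapped at a far upstream C5 start shared with the promoter of CNTRL.

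Of the inter-alpha-trypsin inhibitor heavy chains, plasma proteins of which several bind hyaluronan, ITIH4 had a HepG2 high-confidence peak 2683 bp downstream of its start and ITIH3 a lower-confidence one in a coding exon with 1 motif. ITIH1 and ITIH2 had none, and K562 had no peak at any of the 4. Both subunits of the asialoglycoprotein receptor, which clears desialylated glycoproteins from plasma, had a HepG2 high-confidence peak and no K562 peak: ASGR1 one of 266 bp centred 401 bp upstream of the canonical TSS, and ASGR2 one of 257 bp centred 31 bp downstream. Among the enzymes, PCK1, a rate-controlling enzyme of gluconeogenesis, had a HepG2 high-confidence peak of 221 bp centred 152 bp upstream, and the gluconeogenic FBP1 one of 96 bp in an intron 30775 bp downstream. Tyrosine aminotransferase (TAT) and glucose-6-phosphatase (G6PC1) had no peak. In the last group, IGFBP2 had a HepG2 lower-confidence peak in an intron, 3392 bp downstream, and IGFBP1 and the glypican GPC3 had none.

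HepG2 high-confidence peaks shared with K562 were rare at these genes. Of the 27 HepG2 high-confidence peaks, 2 (7.41%, 2.06 to 23.4) overlapped a K562 peak of either list, both at C3. Of the 7410 HepG2 high-confidence peaks in the loci of all protein-coding genes, 5391 (72.8%) did. The 25 peaks of the liver genes without a K562 overlap touched the 1 kb upstream of some TSS in 80.0% of cases (60.9 to 91.1), and the 2019 such peaks in all protein-coding loci in 39.5%. At the liver genes, HepG2 peaks without a K562 counterpart were thus mostly promoter peaks, and elsewhere mostly not.

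Per length of locus, HepG2 high-confidence peaks were denser at the liver genes and K562 ones were not. The loci cover 1790 kb in all. HepG2 had 1.51 high-confidence peaks per 100 kb there beside 0.561 over all protein-coding loci, and K562 0.447 beside 0.616. With the lower-confidence lists, of 64 and 20 peaks, the densities were 3.58 beside 1.67 in HepG2 and 1.12 beside 1.20 in K562. The median liver gene locus is shorter, 15.4 kb beside 28.2 kb, and a density depends on locus length. Among loci of 8.78 to 41.6 kb, the share of liver genes with a HepG2 high-confidence peak was 29.2%, under the 37.3% of all genes.

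**Figure D4:**
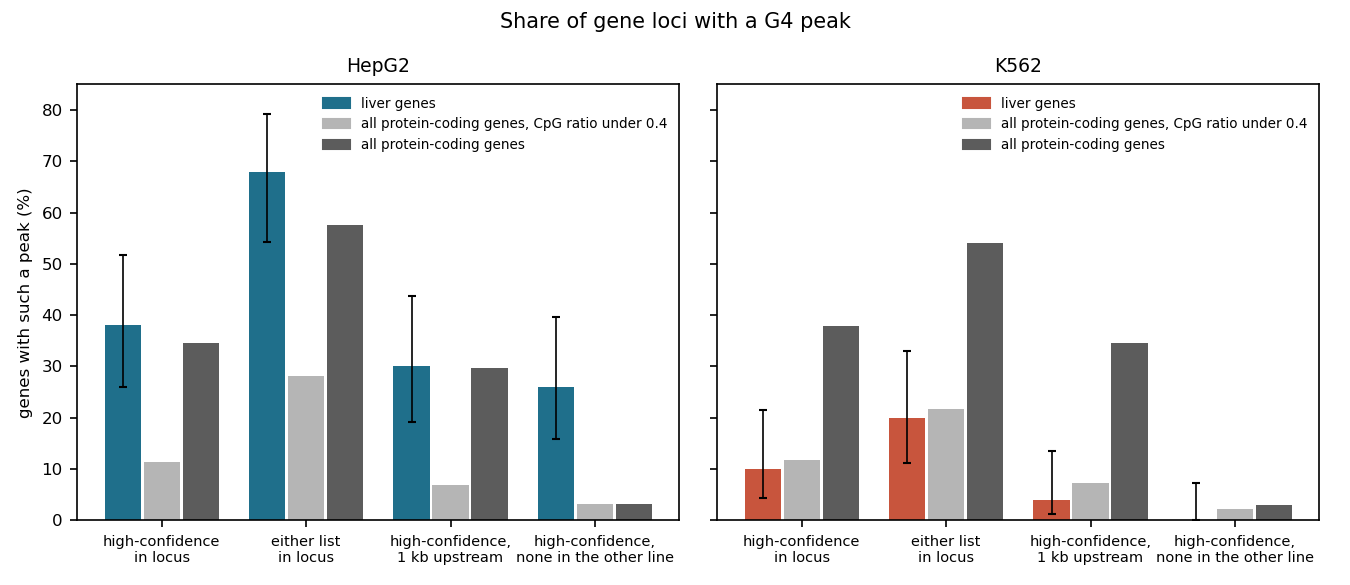
Share of genes (%) with a G4 peak by 4 rules, for HepG2 (left) and K562 (right). Coloured bars are the 50 liver genes with 95% Wilson intervals, light grey bars the 6129 protein-coding genes with an upstream CpG ratio under 0.4, and dark grey bars all 20163. The HepG2 bars of liver genes stand above the light grey ones, and the K562 bars below them.

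The base composition of the promoters set the liver genes apart from most genes with a G4 peak. In the 1 kb upstream of the canonical TSS, the median GC content was 50.9% for the liver genes and 53.3% for all protein-coding genes, but the median ratio of observed to expected CpG was 0.218 beside 0.585. The 15 liver genes with a HepG2 high-confidence peak upstream had a median ratio of 0.222, beside 0.704 for all 5962 genes with such a peak. Liver genes with a HepG2 promoter peak thus had CpG-poor promoters, unlike most genes with one.

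Set beside genes of like CpG content, a comparison added after the values were seen, the HepG2 share was no longer near the background. Of the 6129 protein-coding genes with a ratio under 0.4, leaving out 20 with a masked upstream sequence, 11.3% had a HepG2 high-confidence peak in the locus and 11.7% a K562 one. Of the 45 liver genes with such a ratio, 37.8% had a HepG2 peak and 8.89% a K562 one. In the upstream 1 kb, HepG2 high-confidence peaks were found for 31.1% of these liver genes beside 6.75%, and K562 ones for 4.44% beside 7.24%. On this background the liver genes had more HepG2 peaks than other genes and a like share of K562 peaks. The background was chosen by CpG ratio alone and was not matched for GC content.

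Within the list, the liver genes with and without peaks differed in GC content and less in CpG. The 19 with a HepG2 high-confidence peak had a median upstream GC content of 54.9% and CpG ratio of 0.222, and the 16 without any peak 41.6% and 0.188. A G4 motif was present upstream in 11 of the former (57.9%) and 4 of the latter, beside 46.9% of all genes. ALB, at 33.0% GC, AFP, at 33.2%, and FGB, at 29.5%, had no motif and no peak. GPC3 was an exception, with 61.7% GC, a CpG ratio of 0.695, a motif and no peak, and APOA4, ITIH1 and IGFBP1 had no peak at 51.5%, 49.2% and 50.4% GC. The nearest HepG2 high-confidence peak lay outside the locus, 3.58, 1.94 and 2.92 kb from the canonical start of these last 3 genes. For GPC3 it lay 388 kb away.

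**Figure D5:**
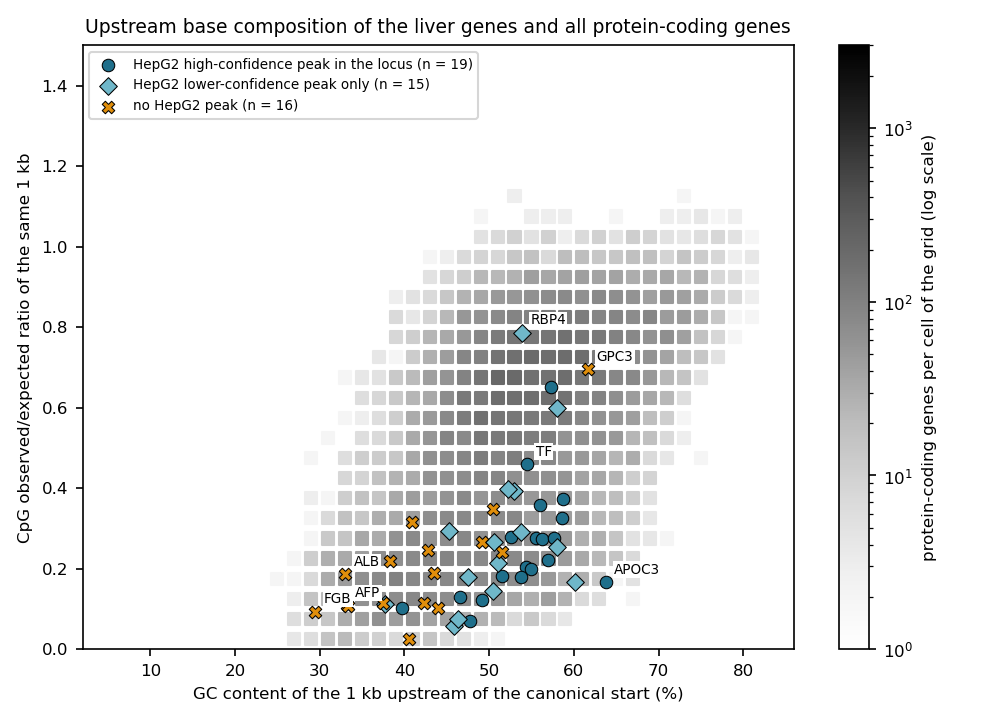
GC content (%) against the CpG observed/expected ratio in the 1 kb upstream of the canonical TSS. Grey squares give the number of protein-coding genes per cell of a grid on a log scale, and symbols the 50 liver genes by HepG2 peak. Of the liver genes, 45 lie under a ratio of 0.4, and those without a peak lie mostly to the left.

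The peaks themselves were wider and poorer in GC than most HepG2 peaks. The 27 high-confidence peaks of the liver genes had a median width of 208 bp and a median GC content of 59.1%, from 52.0 to 67.0, beside 169 bp and 65.2% for the 8776 HepG2 high-confidence peaks outside the mitochondrial sequence. A G4 motif was found in 5 of 27 (18.5%) beside 20.6%, namely at APOA1, F2 and ASGR2 and in 2 peaks of C3. Of the 64 lower-confidence HepG2 peaks, 28.1% (18.6 to 40.1) held a motif beside 18.3% of that whole list. Their median width was 234 bp beside 173 bp. Against HepG2 high-confidence peaks without a K562 overlap in all protein-coding loci, the 25 liver gene peaks were close in GC content, 58.9% beside 58.6%, and 3 of them held a motif, beside 9.56%. With loops of up to 12 bases 10 of 27 peaks (37.0%) held a motif, and with runs of 2 G or more 26 (96.3%). The 8 K562 high-confidence peaks had a median GC content of 62.0%, beside 70.3% for the whole list, and 2 of them a motif, beside 32.6%.

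Short letter motifs known from promoters were looked up in the 27 HepG2 high-confidence peaks on both strands. The SP/KLF letters GGGCGG, typical of CpG islands, were found in 6 (22.2%) beside 51.3% of the whole list. Letters of liver-enriched factors were found in few peaks, but in a larger share than in the whole list: TTGCNNAA of CEBP in 4 (14.8%) beside 5.04%, GTTAAT, a part of the HNF1 site, in 3 (11.1%) beside 2.48%, TGTTTAC of FOXA in 2 (7.41%) beside 2.76% and CAAAGTCCA of HNF4A in 2 (7.41%) beside 1.04%. The AP-1 letters TGACTCA were found in 2 (7.41%) beside 4.33%. The gaps were smaller, or absent, beside the 2019 HepG2 high-confidence peaks without a K562 overlap in all protein-coding loci. Of the 25 such peaks at liver genes, 5 held the SP/KLF letters beside 20.3%, 4 the CEBP letters beside 7.13%, 3 the HNF1 letters beside 4.85%, 2 the FOXA letters beside 4.85%, 2 the HNF4A letters beside 2.82% and 2 the AP-1 letters beside 6.79%. The HNF1 letters were at SERPINA1, F2 and PCK1, the FOXA letters at APOA2 and ASGR2, the HNF4A letters at VTN and F10, and the CEBP letters at APOB, ASGR1 and, in 2 peaks, AGT. Of the 8 K562 high-confidence peaks, 3 held the SP/KLF letters and none any of the others. With counts this small and wider peaks at the liver genes than in the whole list, such shares are a description, and a match is not a bound site.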

How the data were processed

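DNA recovered by BG4 and input DNA were sequenced from both lines. By the authors' methods, reads were trimmed with cutadapt, aligned to hg19 with BWA, stripped of duplicates, and peaks were called per replicate with MACS2 and merged over replicates. The deposited values are start and end positions in bp, in 4 lists pooled over replicates. Earlier K562 data were also considered by the authors, and the labels do not tie a library to a replicate.

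Loci, TSSs and exons were taken from GENCODE release 44 on GRCh37, whereas the study used an earlier release, and sequences from GRCh37. Members, groups and comparison lists were chosen with earlier results of these data known. Every member with a peak is named, and those without are listed. Printed sequences, from high-confidence peaks alone, were chosen after their content was seen. Some sequences and 1 gene of a comparison list are not reported here. No test was run. Overlap and motif functions were tested on simulated data. Alternatives were the lower-confidence lists, other overlap, width, locus, TSS and motif definitions, and other backgrounds. Python 3.11.15, numpy 2.4.6, scipy 1.17.1, pysam 0.24.0 and matplotlib 3.10.9 were used.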

Additional observations from a re-analysis of the deposited data

How the results depend on the processing

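Of 112 values recomputed under an alternative, 81 stayed within 1.5 times the count or within the counting interval, and 31 moved. With the lower-confidence lists, the loci with a peak rose to 34 in HepG2 and 10 in K562, those with HepG2 peaks alone to 24, those with an upstream peak to 29 and 4, and the peaks in the loci to 64 and 20. With 10 kb added on each side, the loci held 43 HepG2 and 15 K562 high-confidence peaks. The K562 upstream count of 2 fell to 1 with TSSs of protein-coding transcripts and to 0 with canonical transcripts. K562 high-confidence peaks without HepG2 ones went from 0 genes to 2 (LIPC and F12, beside 11.6% of all genes) where a HepG2 lower-confidence peak was allowed, and to 3 (beside 8.04%) where it was asked only that no HepG2 peak overlap the K562 peak itself. In each of these settings HepG2 had more liver gene loci and peaks than K562. The background shares moved most with promoters of low CpG ratio, for high-confidence peaks in the locus from 34.5% to 11.3% in HepG2 and from 37.9% to 11.7% in K562. Among loci of 8.78 to 41.6 kb, which include 24 of the liver genes, they were 37.3% and 41.9%, beside 29.2% and 4.17% of those liver genes, so that HepG2 lay under the background there, as it did upstream of a TSS (20.8% beside 32.7%). HepG2 high-confidence peaks with no K562 peak were found for 29.2% of them beside 2.95%. Weighted by the genes' chromosomes, the background shares were 34.6% and 37.3%. No replicate could be left out, since the lists are merged. No paired analysis was possible because each line has 1 merged list per threshold and no test was made. Depth per list is unknown, so that a locus without a peak is one without a called peak at that threshold, and peak height could not be compared.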

Other observations

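The 66 other hepatocyte genes showed the same direction between the lines with smaller shares. This list and the erythroid one were chosen with earlier results of these data known, so they are a description and not independent support. A HepG2 high-confidence peak was found in 16 loci (24.2%), under the 34.5% of all protein-coding genes. A K562 one was found in 6 (9.09%), far under 37.9%. A HepG2 high-confidence peak with no K562 peak was found for 9 (13.6%, Wilson interval 7.34 to 23.9), beside 3.19% of all protein-coding genes. Among these were the serpins SERPINA5, SERPINA6, SERPINA10 and SERPINF1, protein C (PROC), the iron hormone hepcidin (HAMP), the urea cycle enzyme CPS1 and the sterol hydroxylase CYP27A1. The reverse was found for 1 (1.52%), the bile salt pump ABCB11, beside 2.91% of all genes. No peak was found for 31 (47.0%), beside 35.3%. An upstream G4 motif was present for 12 of the 66 (18.2%), beside 42.0% of the 50 genes.

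The 31 erythroid genes showed the opposite direction. K562 had a high-confidence peak in 14 loci (45.2%, Wilson interval 29.2 to 62.2), near the 37.9% of all genes. HepG2 had one in 6 (19.4%), beside 34.5%. A K562 high-confidence peak with no HepG2 peak was found for 5 (16.1%, 7.09 to 32.6), beside 2.91% of all genes. These were HBG2, HBE1, GYPC, SPTB and XK, of which the annotated loci of the globin genes HBG2 and HBE1 overlap and share peaks. HepG2 alone had a high-confidence peak at 0 of the 31, beside 3.19% of all genes, where a limit of 3 counts would be 9.68%.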
